A study of Homo sapiens with 30 samples.

Results

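The response of human brain endothelial cells to the complement fragment C5a was followed in 6 RNA-seq libraries of hCMEC/D3 cells, an immortalised line derived from brain microvessels. Of the 30 libraries of the series, the 3 of the group C5a (50 ng/mL of C5a for 12 h) and the 3 of the group Control (serum-free medium alone for 12 h) were compared. Every gene of the count table with an Ensembl identifier that passed a filter on low counts was kept, which gave 15908 of 63138 genes. All the cells are of 1 line grown without the astrocytes, pericytes and flow that surround a brain capillary, so the groups model the endothelial cell alone. The other groups used here are IL1b (IL-1β at 10 ng/mL) and Epinephrine (200 nM), both for 12 h, and cells of the same line given extracellular vesicles enriched from the supernatants of C5a-treated (EV-C5a) or unstimulated (EV-Control) cells. The group TNF (TNFα at 25 ng/mL for 12 h) is read only where levels are given across all 10 groups and in some list counts against Control. The vesicle groups EV-TNF, EV-IL1b and EV-Epinephrine are read only for levels across all 10 groups. These groups share the fits that estimate the spread behind the tests.

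C5a is the small fragment cut from complement component C5. It binds the receptor encoded by C5AR1, a G protein-coupled receptor that acts mainly through inhibitory G proteins, which lower cyclic AMP, and a second receptor encoded by C5AR2. It is best known as an attractant and activator of neutrophils and monocytes. In endothelium, receptors of this class are studied for their effects on leukocyte adhesion, clotting and the barrier between blood and tissue.

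The 6 libraries held between 17274481 and 19149265 counts each, and between 14797 and 15060 genes had at least 10 counts. All libraries carry the same batch label, and nothing in the labels says that replicates came from separate cultures, so the p-values measure only the spread between these samples. The first principal component took 42.9% of the variance and placed the Control libraries between -26.5 and -23 and the C5a libraries between 24.3 and 25.5. Endothelial markers were present: 14 of 15 endothelial markers passed the filter, and their summed level was 1270 to 1310 CPM (counts scaled to library size) in Control and 926 to 955 CPM in C5a. Microglia and monocyte markers were near 0, with 3 of 12 passing the filter and a summed level of 3.76 to 4.21 CPM in Control and 3.08 to 4.13 CPM in C5a. Of the 12 astrocyte and neuron markers, 4 passed, and their summed level was 45.6 to 56.2 CPM in Control and 42.1 to 45.8 CPM in C5a. Of the 12 pericyte and fibroblast markers, which include genes that cultured endothelium also expresses, 8 passed, with summed levels of 1160 to 1250 CPM in Control and 949 to 993 CPM in C5a. The part of these marker shifts in the results below was not tested.

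After C5a, the largest changes among genes with a symbol, at least 5 CPM and no overlap were falls of rapidly induced regulators. NR4A2 and SIK1 were among them, while most genes that differed moved slightly. At an adjusted p under 0.05 in edgeR's quasi-likelihood test, 3603 of 15908 genes (22.6%) differed, of which 1883 (11.8%) were higher and 1720 (10.8%) lower in C5a. Most differences were small, since 2631 of the called genes moved by less than 0.5 on the log2 scale. In all, 330 genes (2.07%) were called and moved by over 1 on the log2 scale, 243 of them lower and 87 higher. Beyond 2 on that scale there were 66 lower and 8 higher genes. The 3 C5a libraries lay wholly above or wholly below the 3 Control libraries in 6412 genes (40.3%).

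**Figure D1:**
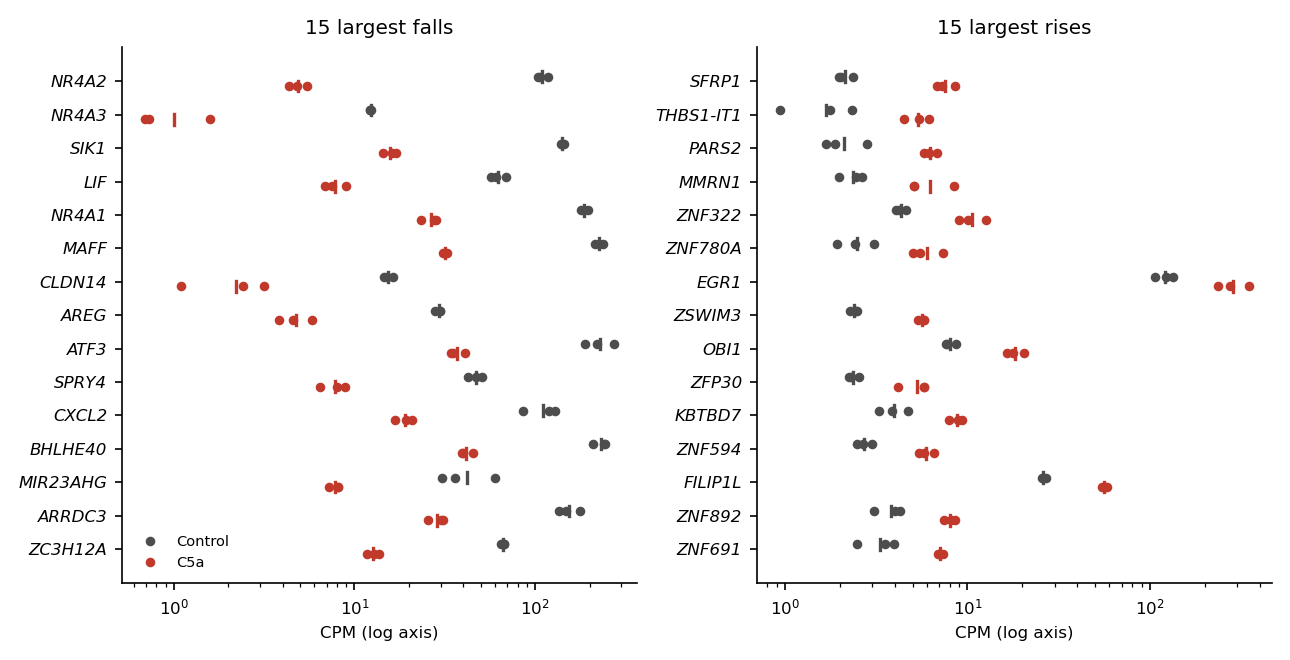
CPM on a log axis of the 15 genes with the largest fall (left) and the 15 with the largest rise (right) in C5a. They were ranked among called genes with a symbol, at least 5 CPM and no overlap between groups. Points are the 3 libraries of each group and short lines the group means. NR4A2 sits between 104 and 118 CPM in Control and between 4.32 and 5.49 CPM in C5a, and most of the rising genes lie under 20 CPM.

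Falls were ranked among called genes with a symbol, at least 5 CPM and no overlap between groups. The deepest of them was that of NR4A2 (ENSG00000153234, chromosome 2, 156324432 to 156342348 in GRCh38, minus strand), an orphan nuclear receptor of the immediate-early class. NR4A2 was at 118, 104 and 107 CPM in the Control libraries and at 4.79, 5.49 and 4.32 CPM in the C5a libraries. Its mean was 22.5-fold higher in Control, a log2 fold change of -4.49 ± 0.17 (SE, adjusted p = 1.15e-09). Its relatives NR4A3 and NR4A1 fell with it. The lack of overlap, a condition for this ranking, was seen in 40.3% of all genes tested. NR4A3 was at 12.4, 12.2 and 12.2 CPM in Control and at 1.58, 0.731 and 0.695 CPM in C5a (log2 fold change -3.60 ± 0.25, adjusted p = 3.71e-11). NR4A1 was at 196, 186 and 179 CPM in Control and at 23.4, 27.7 and 28.1 CPM in C5a (log2 fold change -2.82 ± 0.088, adjusted p = 9.53e-15). Per kilobase of transcript, the Control level of NR4A2 was 27.7 CPM, against 25.6 CPM for NR4A1 and 1.93 CPM for NR4A3.

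Genes classically induced by cyclic AMP and the transcription factor CREB made up much of the top of the list. Of 24 tested genes of this kind, 14 were lower and 1 was higher (62.5% called, against 22.6% of all genes). Their median log2 fold change was -1.15 against -0.002 over all genes tested. The members of this and the other lists were chosen with earlier results of these data known, so such counts describe the lists and do not test them. SIK1 (chromosome 21, 43414483 to 43427189, minus strand) encodes a kinase that phosphorylates and restrains the CREB coactivators. It was at 145, 139 and 140 CPM in Control and at 16.9, 16.1 and 14.4 CPM in C5a (log2 fold change -3.16 ± 0.076, adjusted p = 1.36e-26). A near-identical copy of SIK1 exists in some annotations, and how the authors' counting split reads between copies is not given in the sources used here. LIF, a cytokine of the interleukin-6 family, was at 68.7, 56.6 and 60.7 CPM in Control and at 6.88, 8.93 and 7.54 CPM in C5a (log2 fold change -2.99 ± 0.13, adjusted p = 1.01e-09). AREG encodes amphiregulin, a ligand of the EGF receptor. It was at 29.8, 29.9 and 28 CPM in Control and at 3.82, 5.80 and 4.57 CPM in C5a (log2 fold change -2.63 ± 0.13, adjusted p = 5.8e-18). The only member called higher was CREB1 itself, at a log2 fold change of 0.24 ± 0.061 (adjusted p = 0.00351).

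Promoters of the leading genes are shown because the cyclic AMP response element, the CREB-binding palindrome TGACGTCA, and its core TGACG are known in this class of genes. The stretches below lie before the transcription start in the RefSeq table for GRCh38.p14, are written 5′ to 3′ on the strand of the gene, and carry TGACG (or CGTCA, its form on the other strand) in capitals. Bases that GENCODE 29 places in an exon were left off, except for MAFF, whose whole window lies in an exon of that annotation and of which only 28 bases around the palindrome are shown.
AREG (chr4:74444886-74445133, plus strand): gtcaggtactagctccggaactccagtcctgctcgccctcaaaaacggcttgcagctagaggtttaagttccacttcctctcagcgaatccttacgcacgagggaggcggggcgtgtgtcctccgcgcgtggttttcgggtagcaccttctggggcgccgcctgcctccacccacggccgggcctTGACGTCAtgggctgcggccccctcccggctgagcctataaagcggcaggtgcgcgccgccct
MAFF (chr22:38201930-38201957, plus strand): gccgggtcggTGACGTCAccgcatgact
NR4A3 (chr9:99821635-99821854, plus strand): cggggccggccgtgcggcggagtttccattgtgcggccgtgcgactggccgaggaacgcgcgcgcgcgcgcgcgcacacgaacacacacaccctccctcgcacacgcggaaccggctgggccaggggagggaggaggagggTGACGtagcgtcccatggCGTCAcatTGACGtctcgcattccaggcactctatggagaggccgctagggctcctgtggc
SIK1 (chr21:43427190-43427381, minus strand): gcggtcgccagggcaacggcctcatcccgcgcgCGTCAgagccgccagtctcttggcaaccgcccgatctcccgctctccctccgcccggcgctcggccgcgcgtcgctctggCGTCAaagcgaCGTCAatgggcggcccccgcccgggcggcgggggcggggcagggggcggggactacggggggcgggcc
EGR1 (chr5:138465229-138465478, plus strand): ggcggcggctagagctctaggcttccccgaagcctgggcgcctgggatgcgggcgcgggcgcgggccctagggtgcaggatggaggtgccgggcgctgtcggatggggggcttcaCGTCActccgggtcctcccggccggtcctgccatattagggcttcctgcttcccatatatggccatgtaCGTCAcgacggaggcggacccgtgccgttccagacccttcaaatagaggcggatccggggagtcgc

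The palindrome begins 65 bases before the start of AREG and 54 bases before that of MAFF. NR4A3 and SIK1 each show 3 cores in the printed stretch and no palindrome. EGR1, which rose, was printed for its 2 cores and also holds 2 matches to the CArG box, the binding site of serum response factor. Windows of 300 bases (250 before and 50 after the start) were searched on both strands for 13 of the 15 largest falls and 12 of the 15 largest rises. The palindrome, which also counts as 2 cores, was found in 2 of the 13 falls (15.4%), in none of the 12 rises, and in 3.76% of the 11239 tested genes with an entry. The core was found in 9 of the 13 falls (69.2%), in 5 of the 12 rises (41.7%) and in 40.1% of those 11239 genes. The falls searched without a core were NR4A1, ATF3, BHLHE40 and ARRDC3. Among the 126 genes with an entry that were called lower by over 1 on the log2 scale, the core was found in 46.8%. The kappaB site, bound by NF-kappaB, was found in 23% of those 126 genes, against 13.7% of the 11239 genes. It was found in 2 of the 13 falls (15.4%) and in none of the 12 rises. The CArG box was found in 2 of the 12 rises (16.7%), in none of the 13 falls and in 1.56% of the 11239 genes. These shares describe letters in the windows and carry no test.

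Immediate-early genes, which cells switch on within minutes of a stimulus, moved in both directions. Most genes of this list encode transcription factors, but not all do. Of 35 tested, 22 were lower and 6 higher (80% called, against 22.6% of all genes), with a median log2 fold change of -0.76. ATF3 and FOSB are also in the list of genes induced by cyclic AMP and CREB, and other lists share members too. MAFF, a small Maf protein, was at 236, 213 and 226 CPM in Control and at 31.8, 30.9 and 32.7 CPM in C5a (log2 fold change -2.82 ± 0.067, adjusted p = 6.44e-25). ATF3, a stress-induced factor, was at 272, 189 and 220 CPM in Control and at 41.0, 34.4 and 35.3 CPM in C5a (-2.62 ± 0.20, adjusted p = 3.33e-06). HES1, a repressor downstream of Notch, was at 434, 382 and 394 CPM in Control and at 85.5, 81.0 and 104 CPM in C5a (-2.16 ± 0.10, adjusted p = 6.84e-09). In each of these no C5a library reached a Control library, which was a condition for ranking MAFF and ATF3 among the largest falls.

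EGR1, a zinc finger factor of the same class, went the other way. It was at 123, 106 and 133 CPM in Control and at 235, 274 and 347 CPM in C5a, a log2 fold change of 1.24 ± 0.16 (adjusted p = 0.00018). Its groups did not overlap, which was a condition for its place among the largest rises. The other 5 members called higher, named here after their values were seen, were EGR2 (1.89 on the log2 scale), JUN (0.85), IER5L (0.72), BTG2 (0.29) and MYC (0.25). EGR2 was scarce, with a mean of 0.284 CPM in Control and 1.06 CPM in C5a. FOS differed more among the Control libraries than between groups. It was at 469, 155 and 266 CPM in Control and at 167, 176 and 155 CPM in C5a, the groups overlapped, and the difference did not pass the test (-0.84 ± 0.43, adjusted p = 0.203).

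Genes of MAP kinase feedback include many inhibitors that growth factor pathways induce as their own brake. They were lower in 10 and higher in 3 of 22 tested (59.1% called, against 22.6% of all genes). The higher ones include ETV5, which is a transcription factor. DUSP5, a nuclear phosphatase for ERK, was among the 10 largest changes in absolute level. DUSP5 was at 1150, 1020 and 1100 CPM in Control and at 244, 242 and 278 CPM in C5a (log2 fold change -2.10 ± 0.073, adjusted p = 5.87e-13). DUSP1, a phosphatase for p38 and JNK, was at 1620, 1290 and 1520 CPM in Control and at 625, 621 and 589 CPM in C5a (-1.27 ± 0.13, adjusted p = 2.88e-05). SPRY4, a Sprouty inhibitor of receptor tyrosine kinases, was at 50.9, 42.7 and 47.2 CPM in Control and at 8.0, 6.43 and 8.84 CPM in C5a (-2.59 ± 0.13, adjusted p = 2.03e-11). The summed level of the list was 3410 to 4000 CPM in Control and 1650 to 1690 CPM in C5a.

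**Figure D2:**
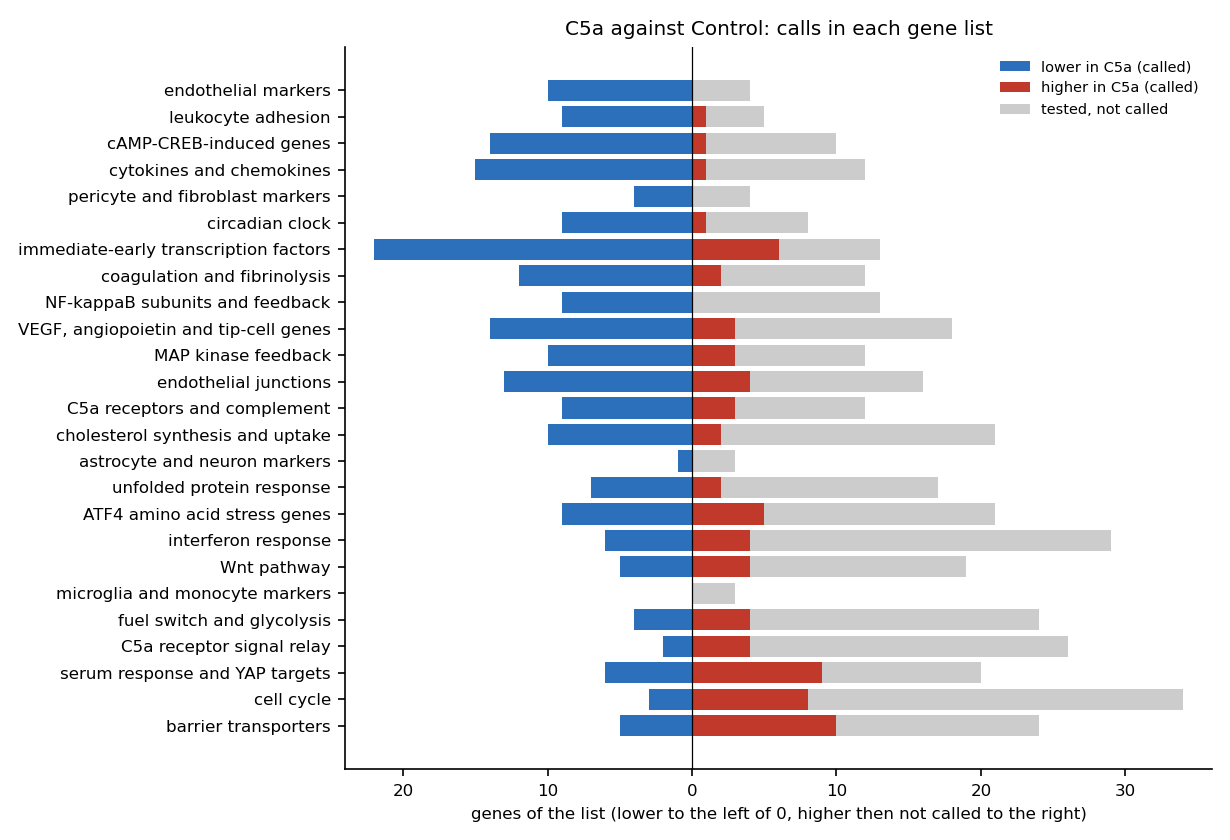
Number of genes of each of the 25 lists called lower (blue, to the left of 0) or higher (red, to the right) in C5a, with those tested and not called in grey; the x axis counts genes. The immediate-early list had 22 lower and 6 higher members, and barrier transporters 5 lower and 10 higher.

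Several inhibitors that NF-kappaB induces against itself fell as well. Of 22 tested subunits and feedback genes, 9 were lower, none was higher and 13 did not pass (40.9% called, against 22.6% of all genes). NFKBIA encodes IκBα, the inhibitor that holds NF-kappaB in the cytoplasm. It was at 296, 279 and 329 CPM in Control and at 78.6, 81.4 and 78.9 CPM in C5a (log2 fold change -1.92 ± 0.12, adjusted p = 4.63e-07). NFKBIZ, a nuclear IκB protein, was at 215, 161 and 203 CPM in Control and at 39.4, 39.7 and 37.8 CPM in C5a (-2.31 ± 0.17, adjusted p = 2.84e-06). TNFAIP3, the ubiquitin-editing enzyme A20, had a log2 fold change of -1.70 ± 0.23 (adjusted p = 0.000286). ZC3H12A, an RNase that degrades cytokine messages, was at 67.0, 64.6 and 67.6 CPM in Control and at 11.7, 13.6 and 12.9 CPM in C5a (-2.39 ± 0.11, adjusted p = 1.25e-11). Of the 5 subunit genes, RELB fell by 0.46 on the log2 scale (adjusted p = 0.00371) and NFKB2 by 0.40 (adjusted p = 1.13e-07). REL was at -0.36, RELA at -0.10 and NFKB1 at 0.02 on that scale, none of them past the test.

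Cytokines and chemokines were lower in 15 of 27 tested genes and higher in 1, CXCL12, with a median log2 fold change of -0.85. Counting both directions, 59.3% were called, against 22.6% of all genes. CXCL8, the neutrophil attractant interleukin-8, was at 106, 83.9 and 146 CPM in Control and at 34.0, 32.4 and 32.8 CPM in C5a (-1.76 ± 0.20, adjusted p = 9.52e-05). IL6 was at 42.3, 34.1 and 51.0 CPM in Control and at 12.8, 12.3 and 11.8 CPM in C5a (-1.79 ± 0.19, adjusted p = 5.57e-05). CXCL2 was at 119, 85.4 and 129 CPM in Control and at 20.7, 19.4 and 16.7 CPM in C5a (-2.55 ± 0.24, adjusted p = 2.32e-05). For each of these attractants and cytokines the Control libraries were spread and the C5a libraries lay close together. CCL20 and CSF3 were scarce, at 1.14 to 2.09 CPM and 3.14 to 4.24 CPM in Control, and had fitted log2 fold changes of -3.46 ± 0.43 and -3.19 ± 0.28. CCL2, the monocyte attractant, was at 21.9, 18.4 and 24.5 CPM in Control and at 18.2, 17.1 and 20.9 CPM in C5a, and did not pass the test (adjusted p = 0.373).

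Adhesion molecules for leukocytes were lower in 9 of 14 tested genes and higher in 1, CD44 (71.4% called, against 22.6% of all genes). ICAM1 was at 144, 137 and 134 CPM in Control and at 87.6, 83.5 and 87.5 CPM in C5a (log2 fold change -0.68 ± 0.13, adjusted p = 0.00303). VCAM1, the other main ligand for leukocyte integrins, was at 7.22, 6.17 and 8.82 CPM in Control and at 9.27, 8.31 and 9.48 CPM in C5a. The groups overlapped and the difference did not pass the test (0.29 ± 0.35, adjusted p = 0.625). SELE, which encodes E-selectin, lay at 0.105 to 0.260 CPM in Control and 0.298 to 0.713 CPM in C5a and did not pass either (adjusted p = 0.225).

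Junction genes were lower in 13 of 29 tested genes and higher in 4 (58.6% called, against 22.6% of all genes). Without C5a replicate 3 or Control replicate 3, the higher count was 2. Against the same Control libraries, Epinephrine also had 13 lower and 4 higher, IL1b 11 lower and 4 higher, and TNF 8 lower and 16 higher. CLDN5, the dominant claudin of brain endothelial tight junctions, was at 50.2, 46.3 and 43.5 CPM in Control and at 19.3, 18.5 and 19.4 CPM in C5a (-1.29 ± 0.089, adjusted p = 1.39e-13). CLDN14, a claudin outside that list, was at 16.4, 14.5 and 15.1 CPM in Control and at 3.16, 2.40 and 1.09 CPM in C5a (-2.79 ± 0.18, adjusted p = 2.91e-11). CLDN11 went up, from 192, 180 and 201 CPM in Control to 301, 298 and 308 CPM in C5a (0.66 ± 0.044, adjusted p = 4.65e-14). CDH5, which encodes VE-cadherin, fell by 0.30 on the log2 scale (adjusted p = 9.12e-06), and PECAM1 by 0.41 (adjusted p = 3.96e-08). TJP1, the scaffold ZO-1, was at 195, 189 and 176 CPM in Control and at 199, 215 and 218 CPM in C5a, and its adjusted p of 0.0434 rose to as much as 0.186 under other settings. Occludin (OCLN) overlapped between the groups and did not pass (0.10 ± 0.11, adjusted p = 0.533).

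Of the 14 endothelial markers tested, 10 were lower and none was higher (71.4% called, against 22.6% of all genes). Of 8 pericyte and fibroblast markers, 4 were lower and none was higher (50% called). Against the same Control libraries, endothelial markers were lower in 10 and higher in none with IL1b and with Epinephrine. TNF had 6 lower and 7 higher. Pericyte and fibroblast markers were lower in 5 with each of these agents, and higher in 1 with IL1b and 2 with TNF. SOX17, a transcription factor of arterial endothelium, was at 47.4, 45.2 and 40.5 CPM in Control and at 20.8, 22.4 and 19.4 CPM in C5a (-1.09 ± 0.078, adjusted p = 4.14e-13). EGFL7, a secreted endothelial protein, was at 171, 161 and 145 CPM in Control and at 89.5, 89.6 and 90.7 CPM in C5a (-0.82 ± 0.064, adjusted p = 2.62e-11). Both genes separated the groups fully. ERG and FLI1, which specify endothelial fate, did not pass the test (-0.14 on the log2 scale for each). Less RNA per cell and fewer cells of a kind cannot be told apart in such bulk libraries.

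Transporters of the blood-brain barrier had 10 higher and 5 lower genes among 29 tested (51.7% called, against 22.6% of all genes). SLC19A1, the reduced folate carrier, was at 36.3, 33.2 and 29.2 CPM in Control and at 48.1, 44.6 and 45.0 CPM in C5a (0.48 ± 0.070, adjusted p = 2.31e-06). ABCB1, the efflux pump P-glycoprotein, was at 209, 219 and 220 CPM in Control and at 177, 183 and 182 CPM in C5a (-0.26 ± 0.047, adjusted p = 8.89e-05). The glucose carrier SLC2A1 fell by 0.24 on the log2 scale. None of the transporters called moved by more than 0.48 on the log2 scale.

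The receptor for C5a was itself scarce and lower after C5a. C5AR1 (chromosome 19, 47290023 to 47322066, plus strand) had 80, 84 and 98 counts in the Control libraries and 49, 36 and 52 counts in the C5a libraries, or 4.16, 4.39 and 5.4 CPM against 2.5, 1.88 and 2.58 CPM. The groups did not overlap, and the log2 fold change was -1.0 ± 0.19 (adjusted p = 0.000145). C5AR2 had 3, 7 and 5 counts in Control and 2, 1 and 3 counts in C5a, too few to test. Of 21 complement genes tested, 9 were lower and 3 higher (57.1% called, against 22.6% of all genes). The higher count was 1 without C5a replicate 1 or without Control replicate 3. C3, the central complement component, was at 98.1, 98.8 and 89.4 CPM in Control and at 76.4, 76.2 and 71.7 CPM in C5a (-0.35 ± 0.048, adjusted p = 8.12e-07). CD55, CD46 and CD59, which shield host cells from complement, fell by 0.33, 0.22 and 0.24 on the log2 scale.

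Genes that relay the signal from G protein-coupled receptors were called about as often as all genes, 21.4% against 22.6%. Among 28 tested, 4 were higher and 2 lower, and PLCB4, among the higher, lost its call in most alternatives. The higher count was 2 without C5a replicate 3 or Control replicate 2, and the lower count was 1 without any 1 of the libraries except C5a replicate 2. RGS2 and RGS4, which both shorten G protein signals, moved apart. RGS4 rose from 146, 132 and 150 CPM in Control to 277, 276 and 262 CPM in C5a (0.93 ± 0.069, adjusted p = 1.95e-09). RGS2 fell from 3.01, 3.50 and 4.52 CPM to 0.560, 0.993 and 1.24 CPM (-1.97 ± 0.29, adjusted p = 3.54e-06).

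Clotting genes were lower in 12 and higher in 2 of 24 tested (1 higher without C5a replicate 2). In this list 58.3% were called, against 22.6% of all genes. F2RL3, which encodes the thrombin receptor PAR4, was at 4.83, 4.13 and 4.02 CPM in Control and at 0.509, 0.366 and 0.596 CPM in C5a (-3.12 ± 0.31, adjusted p = 1.09e-09). MMRN1, which encodes a factor V-binding protein of platelets and endothelium, rose from 1.97, 2.46 and 2.64 CPM to 5.09, 5.07 and 8.49 CPM (1.4 ± 0.22, adjusted p = 1.05e-05). Of 32 angiogenic and tip-cell genes, 14 were lower and 3 higher (53.1% called). Among those lower were the Notch ligand DLL4 at -1.19 ± 0.17 and placental growth factor (PGF) at -0.77 ± 0.083 on the log2 scale.

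Clock genes were lower in 9 of 17 tested genes, with a median log2 fold change of -0.63. Counting both directions, 58.8% were called, against 22.6% of all genes. NR1D1, the repressor REV-ERBα, was at 17.0, 16.4 and 17.2 CPM in Control and at 4.33, 3.87 and 4.37 CPM in C5a (-2.01 ± 0.14, adjusted p = 2.48e-13), although its reads overlap those of THRA on the opposite strand. PER1, a clock gene that cyclic AMP also induces, was at 400, 388 and 358 CPM in Control and at 117, 118 and 114 CPM in C5a (-1.71 ± 0.058, adjusted p = 6.43e-21). CLOCK was the 1 member called higher (0.23 on the log2 scale), and no member was called higher without C5a replicate 1, C5a replicate 2, Control replicate 2 or Control replicate 3. BMAL1, its partner, was at -0.04 and did not pass.

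Metabolic and growth lists moved less as a whole, with single members far from the rest. Of all genes tested 22.6% were called, against 29.7% of cell cycle and 28.6% of interferon response genes. The share called was 46.7% for amino acid stress, 37.5% for the unfolded protein response and 38.7% for cholesterol genes. Genes of fuel switch and glycolysis were higher in 4 and lower in 4 of 28 tested (28.6% called), with a median log2 fold change of 0.02. PDK4, the kinase that shuts pyruvate dehydrogenase, was at 82.3, 72.5 and 68.5 CPM in Control and at 19.9, 21.5 and 18.9 CPM in C5a (-1.89 ± 0.10, adjusted p = 1.16e-10). IRS2, an adaptor of the insulin receptor, fell by 1.71 on the log2 scale (adjusted p = 2.04e-11). CDKN1A, the cell cycle inhibitor p21, was at 449, 450 and 439 CPM in Control and at 253, 232 and 248 CPM in C5a (-0.87 ± 0.045, adjusted p = 5.59e-17). Of the 37 cell cycle genes tested, 8 were higher and 3 lower, and the lower count was 1 without C5a replicate 2 or Control replicate 1. Among genes of amino acid stress, 9 of 30 were lower and 5 higher, led by GDF15 at -0.98 ± 0.065 on the log2 scale. Among genes of the unfolded protein response, 7 of 24 were lower (4 without C5a replicate 2), led by PPP1R15A at -1.50 ± 0.14, while the chaperone HSPA5 rose by 0.23 (adjusted p = 8.87e-05). Cholesterol genes were lower in 10 of 31, and the exporters ABCA1 and ABCG1 were at -1.0 ± 0.14 and -1.06 ± 0.28. Genes of interferon response were lower in 6 and higher in 4 of 35, and the higher count was 2 without C5a replicate 1, C5a replicate 3, Control replicate 2 or Control replicate 3. HLA-B fell from 1850, 1820 and 1860 CPM to 1350, 1280 and 1360 CPM (-0.47 ± 0.057, adjusted p = 9.47e-07) and B2M by 0.28 (adjusted p = 1.69e-05). Reads of HLA genes can be shared among near-identical relatives.

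Targets of serum response factor and YAP went both ways, with 9 higher and 6 lower of 26 tested (57.7% called). TAGLN, an actin-binding protein of contractile cells, rose from 17.3, 19.4 and 17.5 CPM to 28.5, 29.3 and 29.4 CPM (0.69 ± 0.084, adjusted p = 9.61e-08). CCN1, a matrix protein and YAP target, fell from 2610, 2420 and 2680 CPM to 1750, 1810 and 1750 CPM (-0.54 ± 0.047, adjusted p = 5.77e-11). In the Wnt list, 4 of 24 were higher and 5 lower (37.5% called, against 22.6% of all genes). The inhibitors SFRP1 and DKK1 were among the risers. SFRP1, a secreted Wnt antagonist, had the largest rise among called genes with a symbol, at least 5 CPM and no overlap. It was at 1.97, 2.35 and 2.04 CPM in Control and at 7.23, 6.84 and 8.54 CPM in C5a (1.83 ± 0.18, adjusted p = 1.29e-09). DKK1 rose from 46.2, 48.6 and 48.0 CPM to 73.9, 74.4 and 79.3 CPM (0.67 ± 0.066, adjusted p = 1.28e-09).

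Few of the largest rises were abundant. Besides EGR1, FILIP1L was the most abundant of the 15, at 25.6, 26.8 and 25.8 CPM in Control and 54.5, 57.8 and 56.5 CPM in C5a (1.11 ± 0.15, adjusted p = 0.000174). THBS1-IT1 lies within THBS1, so its reads may come from that gene. THBS1 itself was lower in C5a (log2 fold change -0.25, adjusted p = 0.00084), and the source of the reads was not tested. THBS1-IT1 was at 2.34, 0.941 and 1.76 CPM in Control and at 6.16, 5.43 and 4.47 CPM in C5a (1.67 ± 0.25). Of the 15, 5 were ZNF genes, which encode zinc finger proteins, most of them with the repeated fingers that bind DNA in a sequence-specific way. ZNF322 was at 4.05, 4.60 and 4.24 CPM in Control and at 9.02, 10.1 and 12.7 CPM in C5a (1.30 ± 0.16, adjusted p = 5.75e-08).

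The ZNF genes, a group taken up after the largest rises had been seen, were shifted upward. Of 482 tested, 167 were higher and 12 lower (37.1% called, against 22.6% of all genes). Their median log2 fold change was 0.30 against -0.002 over all genes. The higher count was 129 to 143 when single libraries were left out. The lower count was 6 without C5a replicate 3 and 7 without Control replicate 1. Against the same Control libraries, IL1b gave 189 higher and 30 lower ZNF genes (median log2 fold change 0.29). Epinephrine gave 55 higher and 26 lower, and TNF 67 higher and 85 lower. The summed level of the ZNF genes was 5380 to 5460 CPM in Control and 6170 to 6200 CPM in C5a. Transcript GC content moved with the result: genes called higher had a median GC content of 44.6% and those called lower 53.4%, against 48.4% over all genes tested and 43.5% in ZNF genes. With the genes split into 5 classes of equal size by GC content, from the lowest class to the highest, the number called higher went from 573 to 149 and the number called lower from 192 to 550. Within the lowest class the median log2 fold change was 0.43 for 145 ZNF genes and 0.05 for all genes, and within the highest class it was 0.06 for 59 ZNF genes and -0.09 for all genes. With each library corrected for GC content, 152 ZNF genes were higher and 12 lower.

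**Figure D3:**
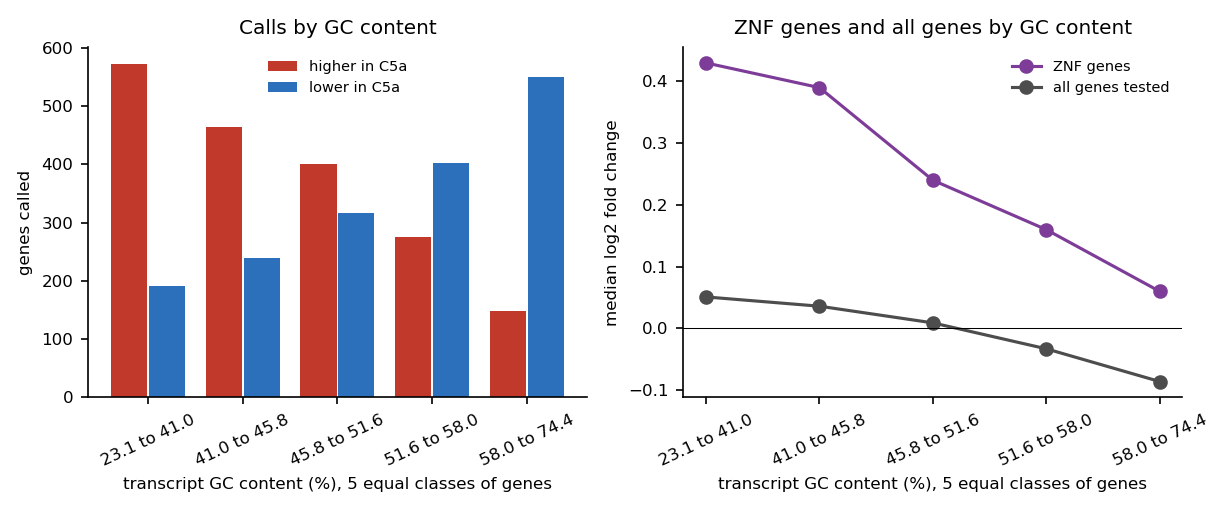
Left, genes called higher (red) or lower (blue) in C5a in each of 5 equal classes of genes by transcript GC content (percent, x axis); right, median log2 fold change of C5a against Control for ZNF genes (purple) and all genes tested (grey) in the same classes. Calls go from 573 higher and 192 lower at the low end to 149 higher and 550 lower at the high end, and ZNF genes lie above all genes in every class.

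Genes called with a change over 1 on the log2 scale were short and low in level in both directions. The median span in the genome was 7.78 kb for those lower and 15.9 kb for those higher, against 26.6 kb over all genes tested, and the median number of exons was 4 in each against 9. Their median level was 1.27 and 1.4 CPM, against 19.2 CPM over all genes tested. The 13 protein-coding genes of the mitochondrial genome were higher in 7 cases and lower in none (53.8% called, against 22.6% of all genes). The higher count was 4, with 1 gene lower, without Control replicate 3 and again with a correction for GC content. MT-CO1, a subunit of cytochrome c oxidase, had the largest change in absolute level among the genes named here. It was at 4510, 4800 and 4000 CPM in Control and at 5180, 5310 and 5430 CPM in C5a (0.26 ± 0.048, adjusted p = 0.000137). ACTB and GAPDH, often used as references, did not pass the test (0.08 and -0.08 on the log2 scale), but passed in 3 and 4 of 16 alternatives.

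C5a was next compared with the other agents without use of the Control libraries. Against epinephrine, which acts on adrenergic receptors that can raise or lower cyclic AMP, 2714 genes (17.1%) differed, 1286 higher and 1428 lower in C5a. Scaling by total counts turned that majority, to 1577 higher and 1268 lower. Of the 24 genes induced by cyclic AMP and CREB, 18 were lower in C5a and 1 was higher. NR4A2 was at 96.5 ± 13.0 CPM (SD, n = 3) in Epinephrine and 4.86 ± 0.587 CPM in C5a (-4.31 on the log2 scale, adjusted p = 1.34e-09), and SIK1 was at 72.0 ± 7.66 CPM and 15.8 ± 1.26 CPM (-2.19, adjusted p = 8.43e-22). Cytokines were lower in C5a in 18 of 27 genes, and CXCL8 was at 366 ± 29.4 CPM in Epinephrine and 33.1 ± 0.821 CPM in C5a (-3.47, adjusted p = 3.85e-07). SFRP1 was higher in Epinephrine, at 12.4 ± 0.255 CPM against 7.54 ± 0.887 CPM in C5a (-0.72, adjusted p = 0.000393).

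Against IL-1β, a cytokine that activates NF-kappaB, 4968 genes (31.2%) differed, 2294 higher and 2674 lower in C5a. The share higher among those called was 46.2%, against 68% with libraries scaled by total counts alone, which moved the median log2 fold change of all genes from 0.009 to 0.101, so the direction of small differences in this comparison depends on the scaling. Cytokines were lower in C5a in 25 of 27 genes and NF-kappaB subunits and feedback genes in 20 of 22, and none of either list was higher. CXCL8 was at 1160 ± 33.7 CPM (SD, n = 3) in IL1b and IL6 at 178 ± 7.04 CPM, against 33.1 ± 0.821 CPM and 12.3 ± 0.512 CPM in C5a (-5.13 and -3.85 on the log2 scale). The genes induced by cyclic AMP and CREB were much closer, with 7 lower and 3 higher of 24 and a median log2 fold change of -0.23. NR4A2 was low in both, at 10.9 ± 0.583 CPM in IL1b (-1.17, adjusted p = 0.00107), and so was SIK1, at 23.1 ± 1.57 CPM (-0.55, adjusted p = 3.65e-06). NR4A1 was higher in C5a, at 26.4 ± 2.61 CPM against 17.3 ± 1.13 CPM (0.61, adjusted p = 0.00011). HES1 was at -0.04 on the log2 scale and did not pass. Of the ZNF genes, 31 were higher and 28 lower in C5a.

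**Figure D4:**
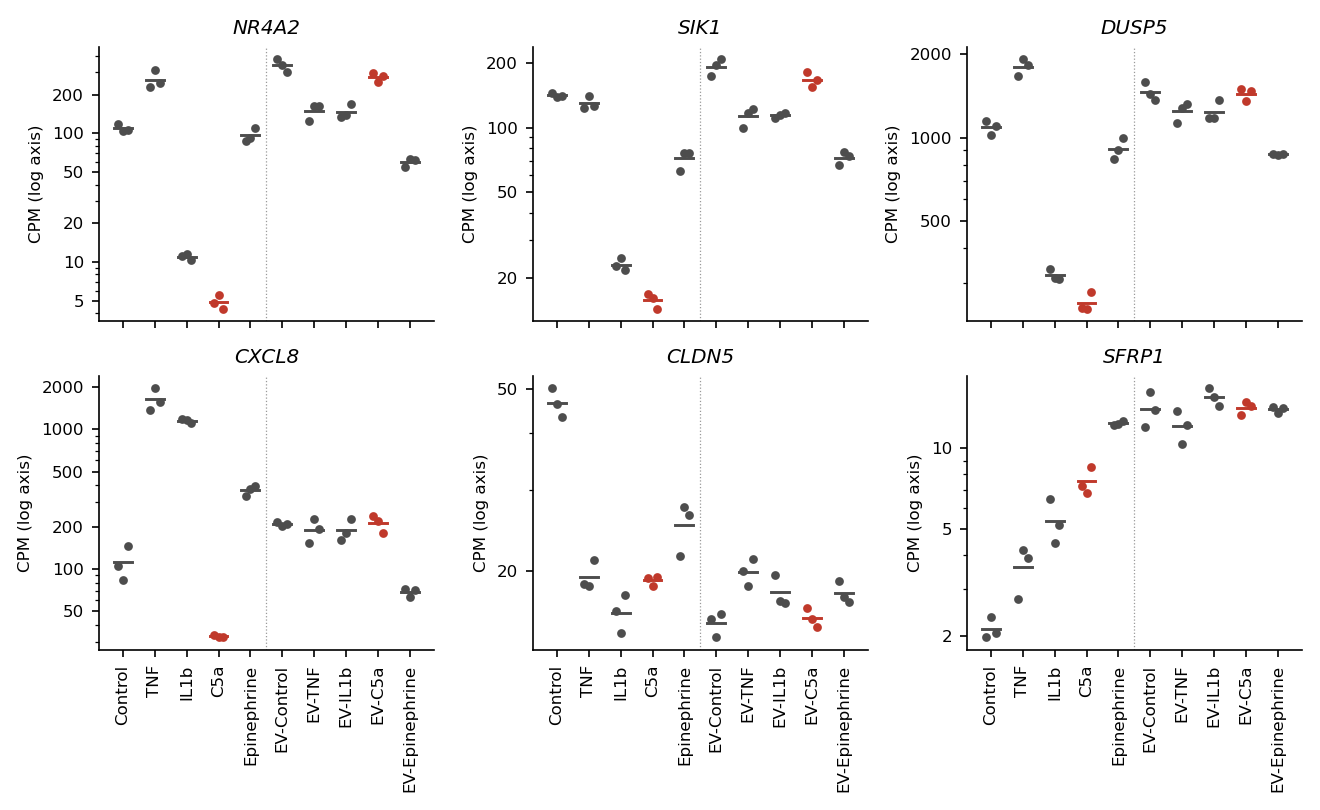
CPM (log axis) of 6 genes in the 30 libraries, by group; points are libraries, short lines group means, red marks C5a and EV-C5a, and the dotted line separates directly stimulated from vesicle-treated cells, which were scaled separately. NR4A2, SIK1 and DUSP5 are low in IL1b and C5a, CXCL8 is lowest in C5a, and for CLDN5 and SFRP1 Control stands apart from all the other groups.

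Across all 10 groups C5a held the lowest mean level of NR4A2, SIK1, DUSP5, CXCL8 and IL6. TNF lay at the other end for CXCL8, with 1640 ± 301 CPM (SD, n = 3), and vesicle-treated groups were scaled separately. NR4A2 means, from low to high among directly treated groups, were C5a, IL1b, Epinephrine, Control and TNF, of which Epinephrine (96.5 CPM) and Control (110 CPM) did not differ beyond their spread (adjusted p = 0.309). CLDN5 gave another order. It was at 46.7 ± 3.35 CPM in Control and at 15.4 to 25.2 CPM on average in all 9 other groups, vesicle-treated cells included. SFRP1 likewise averaged 2.12 ± 0.202 CPM in Control and 3.6 to 15.6 CPM in the other groups, with C5a at 7.54 ± 0.887 CPM. For these 2 genes the C5a libraries therefore sat within the range of the other groups, and Control at its edge.

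The vesicle groups asked whether the response passes on with vesicles of C5a-treated cells. The vesicle response was small: 8 of 15918 genes (0.0503%) differed between EV-C5a and EV-Control, 2 higher and 6 lower. The count was 175 without EV-Control replicate 3, 2 without EV-C5a replicate 2 or EV-Control replicate 2, and 3 without EV-C5a replicate 3. The lower genes included AREG and SOX17, the only genes named by the rule that were called. No gene was called lower without EV-C5a replicate 2, EV-C5a replicate 3 or EV-Control replicate 2, so both calls are lost there. AREG averaged 26.3 ± 2.92 CPM (SD, n = 3) in EV-Control and 17.6 ± 3.36 CPM in EV-C5a (-0.58, adjusted p = 0.0125), and SOX17 had a log2 fold change of -0.43 (adjusted p = 0.0357). NR4A2 averaged 340 ± 36.6 CPM in EV-Control and 277 ± 23.1 CPM in EV-C5a (-0.29, adjusted p = 0.637).

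Direct and vesicle responses differed, by a test of the difference over all 30 libraries, in 1989 of 16691 genes (11.9%). Among the 117 genes named by the rule that were called in the direct comparison and tested in both, the difference passed for 97. The median size of their change was 1.05 on the log2 scale with C5a itself and 0.11 with vesicles. Since these genes were picked for their direct change, the larger direct median and many of the passing differences follow from that choice. F2RL3 had the largest vesicle change among them (-1.39 on the log2 scale, adjusted p = 0.0749), and its direct change was -3.12. Its vesicle response still differed from the direct one (1.74 on the log2 scale, adjusted p = 0.00451).

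**Figure D5:**
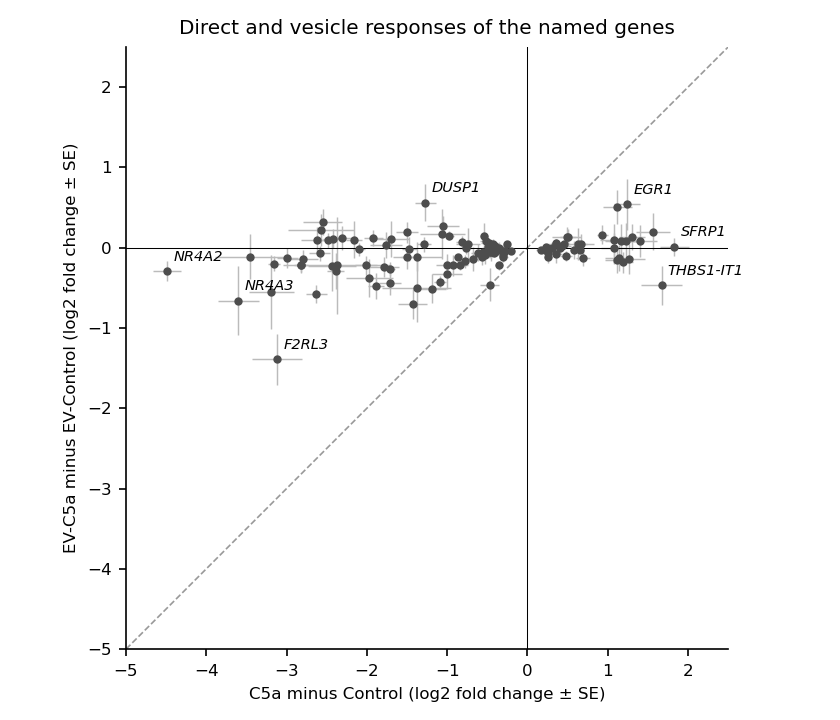
Log2 fold change of C5a against Control (x axis) and of EV-C5a against EV-Control (y axis) for 117 named genes called in the direct comparison; bars are SE and the dashed line marks equal values. The points spread from -4.49 to 1.83 along x and all but F2RL3 lie within 1 of 0 along y.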

How the data were processed

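RNA was measured by RNA-seq in 30 libraries, of which 6 carry the main comparison. The authors deposited raw read counts per gene, with no normalization, per the file headers. STAR, the build hg38, FastQC, DESeq2 and R 4.4.1 are named in the submitters' processing notes. The counting program, the annotation and the use of strand are not given in the sources used here, so reads of overlapping genes cannot be told apart. Of 63147 lines, 4 lacked a gene ID (0.000789% to 0.00164% of a library), and 2 broken records (TTN and ANK2) were left out. Positions, lengths and GC content come from GENCODE 29, which held 58124 of 63138 IDs, and promoters from RefSeq (GRCh38.p14).

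Genes were filtered with filterByExpr, scaled by TMM (trimmed means of log ratios) and tested with edgeR 4.0.16 (R 4.3.3), the quasi-likelihood test, two-sided, with Benjamini-Hochberg adjustment over all genes and a threshold of 0.05, checked on simulated data. The 15 directly treated libraries shared 1 fit, as did the 15 vesicle libraries, and the difference of both responses used all 30. CPM are counts over scaled library totals. Counting error and small samples set the precision. Named genes are the 15 largest rises and falls with at least 5 CPM and no overlap, the 10 largest CPM differences, up to 4 called members of each of 25 lists and a set named in any case. Of the genes so selected, 1 is not reported here, and others appear only in counts and figures. Members and lists were chosen with earlier results of these data known. Some genes are members of more than 1 list, so the counts of different lists are not independent. Alternatives were other scalings and filters, DESeq2 1.42.0, a replicate block, other sets of libraries, leaving out each library and, chosen after seeing the data, corrections for GC content and length. A gene with too few counts was not tested.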

Additional observations from a re-analysis of the deposited data

Results flagged for a closer look

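The results below drew attention because the response to C5a itself and the response to vesicles of C5a-treated cells differed when the difference was tested. That was so for 1989 genes, and for each of the 5 largest rises and the 5 largest falls. These were ranked among called genes with a symbol, at least 5 CPM and no overlap between groups. The difference, vesicle minus direct on the log2 scale, was 4.21 for NR4A2 (adjusted p = 4.5e-11), 2.95 for NR4A3 (0.0141), 2.97 for SIK1 (1.42e-13), 2.88 for LIF (2.02e-09) and 2.62 for NR4A1 (9.27e-11). Among the rises it was -1.81 for SFRP1 (adjusted p = 2.72e-09), -2.13 for THBS1-IT1 (8.05e-06), -1.35 for PARS2 (0.00171), -1.32 for MMRN1 (0.00294) and -1.16 for ZNF322 (0.000126). These genes were picked by their direct change, so the direction of the difference is fixed in part by that choice. All p-values are from edgeR's quasi-likelihood test.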

How the results depend on the processing

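For C5a vs Control, the count of genes called stayed within 1.5 times of 3603 under every alternative scaling, filter, tool and set of libraries run (from 2762 to 4595), and was 330 (87 higher, 243 lower) when a log2 fold change over 1 was also asked for. Leaving out single libraries gave 2762 to 3068 genes, 1435 to 1580 higher and 1268 to 1488 lower. The replicate block gave 3503 genes. Replicate numbers do not pair the samples in the labels, and same-numbered samples deviated from their group means with correlations of -0.00388, 0.0257 and 0.0284. The count for EV-C5a against EV-Control was 5 by total counts, 73 with no filter, 3 at a mean of at least 50 counts, 3 with only the 6 libraries compared, 6 with the replicate block, and 2 to 175 when single libraries were left out. The cause was not tested. C5a against Epinephrine gave 2004 to 2939 genes, C5a against IL1b 4123 to 4311 and vesicle minus direct 1622 to 1875 when single libraries were left out. No named gene changed direction under any alternative run. Of those called, PLCB4 lost the call in 10 of 16 alternatives, TJP1 in 9, MT-ND4 in 5, IFI44L in 4, NUPR1 and VTN in 3 each, and CSPG4, F3, MT-CO1 and SERPING1 in 1 each. The correction for GC content gave 3604 genes and that for length 3981. Genes with few counts, such as C5AR2, limit what depth can show.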
